A study of Mus musculus with 9 samples.

Results

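Immediate-early genes and the feedback genes of growth factor signalling were examined across 3 groups of N1E-115 cells, an established mouse neuroblastoma line used to study the outgrowth of neurites. The members were 39 genes named by symbol, each represented by its probe set with the highest mean over the 9 arrays. Of these, 38 were measured among 22180 genes tested. Fosl1, an AP-1 subunit, shared its probe set with another gene and was not analysed here. Each group had 3 arrays. The first received 80 nM of an siRNA pool against Hmgn5, a nucleosome-binding chromatin protein, and was sampled after 24 h of differentiation. The second received 80 nM of a control siRNA and was sampled at 24 h, and the third received the same control siRNA and was sampled at 4 h. All cells were starved of serum overnight and then replated on laminin, so no group shows serum-fed cells or the first minutes after plating. The work used 1 cell line.

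Immediate-early genes are transcribed within minutes of a stimulus without new protein synthesis, mainly through serum response factor and its ternary complex partners and through CREB, and their transcripts decay quickly. Many encode transcription factors, such as the AP-1, EGR and NR4A proteins. Others, such as the dual-specificity phosphatases and the Sprouty and Spred proteins, switch off the MAP kinase cascade that induced them. In neuronal cells these genes respond to neurotrophins, depolarization, adhesion and replating, and prolonged activity of the ERK kinase accompanies neurite growth.

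The noradrenergic markers of the line were present, with mean log2 values between 9.12 and 13.0 for 8 measured genes, Th and Dbh included. Markers of glia, fibroblasts, leukocytes and endothelium averaged at most 5.92, and none of them was called in any comparison. Of the noradrenergic markers, 2 of 8 were called over time in control cells, with a median difference of 0.22. Their summed linear signal was 26229 to 26850 with Hmgn5 siRNA at 24 h, 27193 to 28656 in control cells at 24 h and 19842 to 24487 in control cells at 4 h, and the part of this shift in the changes over time was not tested. The targeted gene Hmgn5 read 3.53, 3.45 and 3.50 with Hmgn5 siRNA at 24 h, 4.77, 4.66 and 4.69 with control siRNA at 24 h, and 4.53, 4.23 and 4.57 with control siRNA at 4 h. It fell by 1.21 on the log2 scale with Hmgn5 siRNA against control siRNA at 24 h (limma adjusted p = 0.00367). Its probe set is among the 33.3% of genes with the lowest signal, and background was not estimated, so the size of this difference is uncertain. Control 4 h replicate 2 stood apart from the other 8 arrays, and its correlation with them across probe sets was 0.978 to 0.986, where the other pairs reached at least 0.991. It also carried the lowest array weight, 0.198, against 0.789 to 1.74 for the rest.

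The array was low for the members more often than for genes in general. Among the 3 control arrays at 4 h, replicate 2 was the lowest for 26 of 38 members, against 37.5% of all genes. It lay more than 0.5 log2 units below the mean of the other 4 h arrays for 8 members (21.1%), against 3.92% of all genes. Those with the widest gaps were Jun, where replicate 2 was lower by a log2 difference of -1.15, Jund (-0.91), Arc (-0.65) and Sgk1 (-0.58). The median SD of the members within the 4 h group was 0.16 log2 units, against 0.11 for all genes. At 24 h it was 0.09 with Hmgn5 siRNA and 0.08 with control siRNA, against 0.08 for all genes in both groups. Differences of the members over time in control cells are therefore given with and without replicate 2.

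**Figure D1:**
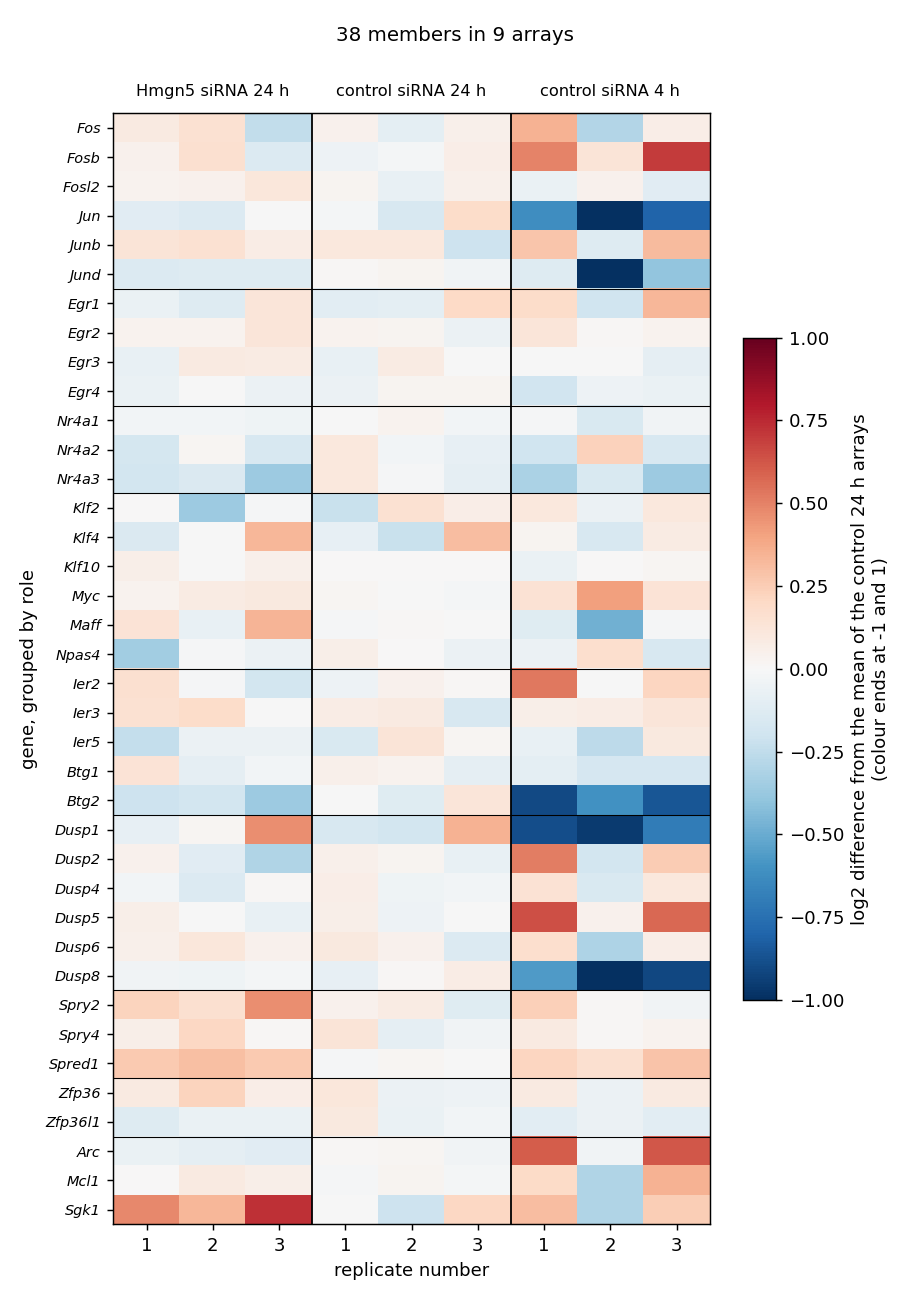
Log2 difference of each of the 38 members from the mean of the 3 control 24 h arrays, 1 row per gene grouped by role and 1 column per array. Btg2, Dusp1, Dusp8 and Jun are low in all 3 control 4 h arrays, while Fosb, Dusp5 and Arc are high at 4 h in replicates 1 and 3 but near the 24 h level in replicate 2.

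Between the times in control cells, 3 members rose and none fell. The genes were Btg2, Dusp1 and Dusp8, by 1.73-fold to 1.86-fold. The 3 rises are 7.89% of the members, where 2.17% of all genes rose, and no member fell, where 2.17% of all genes did. In either direction 4.34% of all genes were called. Without control 4 h replicate 2, 3 members rose (Btg2, Dusp8 and Jun) and 5 fell (Fosb, Dusp5, Spred1, Arc and Mcl1), and the Dusp1 call was lost. The background without that array was 2.64% of genes higher and 2.94% lower, 5.58% in all. Each of the 5 genes that fell was lower in that array than in the mean of the other 4 h arrays, so leaving it out lowers their differences by itself. In these RNA samples of whole cultures, a change in the share of cells that express a gene and a change of RNA per cell cannot be told apart.

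Btg2 encodes an antiproliferative protein that recruits the CCR4-NOT deadenylase and is induced by growth factors and by p53. It read 8.27, 8.30 and 8.12 (log2) with Hmgn5 siRNA at 24 h, 8.48, 8.36 and 8.60 in control cells at 24 h, and 7.58, 7.87 and 7.63 in control cells at 4 h. All arrays at 24 h lay above all arrays at 4 h, and the 3 groups did not overlap one another. Over time in control cells it rose by 0.79 log2 units (SE 0.10, limma adjusted p = 0.00358), or 1.73-fold. The call held under each of the 17 alternative settings, with adjusted p up to 0.0262, and without control 4 h replicate 2 the rise was 0.88 (adjusted p = 0.00218).

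Dusp8 encodes a dual-specificity phosphatase that acts mainly on the stress kinases JNK and p38 and is prominent in brain. Its readings were 8.36, 8.35 and 8.38 with Hmgn5 siRNA at 24 h, 8.32, 8.41 and 8.47 in control cells at 24 h, and 7.83, 7.20 and 7.49 in control cells at 4 h. The groups of 24 h overlapped each other and both lay above the 4 h arrays. In control cells it rose by 0.89 log2 units (SE 0.13, limma adjusted p = 0.00799), or 1.86-fold, and by 0.74 without control 4 h replicate 2 (adjusted p = 0.00652). The call was lost only where the fit was limited to the 6 control arrays (adjusted p = 0.0511).

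Dusp1 encodes a nuclear MAP kinase phosphatase that acts on p38, JNK and ERK. It read 8.99, 9.10 and 9.54 with Hmgn5 siRNA at 24 h, 8.91, 8.89 and 9.42 in control cells at 24 h, and 8.19, 8.12 and 8.37 in control cells at 4 h. The arrays numbered 3 were the highest of each group, and the groups at 24 h lay above the group at 4 h. Dusp1 rose in control cells by 0.85 log2 units (SE 0.17, limma adjusted p = 0.0252), or 1.80-fold. Unlike the calls of Btg2 and Dusp8, this one was lost without any 1 of the 3 control arrays at 24 h (adjusted p 0.0571 to 0.0737) and without control 4 h replicate 1 or 2 (adjusted p = 0.0689 and 0.0614). The difference stayed between 0.67 and 0.94 when single arrays were left out.

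The promoters of the 3 genes that rose in control cells are shown because each holds the full palindromic CRE, TGACGTCA, the binding element of CREB and ATF proteins. Maff is the only other member with that element in its window. The sequences are the 250 bases before the annotated start, from RefSeq (GRCm38.p6), 5′ to 3′ on the strand of the gene, with the CRE in capitals. The genes and the motif were chosen after their values were seen.
Btg2 (chr1:134079156-134079405, minus strand): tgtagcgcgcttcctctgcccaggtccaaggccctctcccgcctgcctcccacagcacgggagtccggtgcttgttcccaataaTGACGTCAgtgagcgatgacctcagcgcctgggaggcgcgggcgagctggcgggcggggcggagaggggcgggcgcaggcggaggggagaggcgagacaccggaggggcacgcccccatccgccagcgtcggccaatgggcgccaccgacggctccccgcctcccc
Dusp1 (chr17:26508473-26508722, minus strand): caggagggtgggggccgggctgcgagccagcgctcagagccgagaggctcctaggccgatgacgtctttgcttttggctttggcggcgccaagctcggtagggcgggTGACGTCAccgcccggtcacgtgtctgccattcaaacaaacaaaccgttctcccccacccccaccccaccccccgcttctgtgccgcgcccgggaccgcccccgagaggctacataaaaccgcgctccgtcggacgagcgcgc
Dusp8 (chr7:142095285-142095534, minus strand): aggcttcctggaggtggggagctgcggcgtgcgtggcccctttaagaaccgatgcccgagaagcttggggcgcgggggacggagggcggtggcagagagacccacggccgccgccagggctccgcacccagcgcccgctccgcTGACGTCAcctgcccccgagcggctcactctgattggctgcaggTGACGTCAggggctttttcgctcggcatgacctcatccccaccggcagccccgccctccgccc
Maff (chr15:79347270-79347519, plus strand): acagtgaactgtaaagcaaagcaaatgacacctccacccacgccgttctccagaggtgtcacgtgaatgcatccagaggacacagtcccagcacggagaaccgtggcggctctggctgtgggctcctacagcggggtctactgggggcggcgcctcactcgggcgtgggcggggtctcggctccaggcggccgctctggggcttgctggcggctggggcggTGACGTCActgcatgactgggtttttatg

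The CRE begins 166 bases before the start in Btg2, 143 in Dusp1, and 107 and 63 in Dusp8, and 29 bases before the start in the window of Maff that holds it. Windows were found for 30 of the 39 members, 41 windows in all since 3 genes had several, and both strands were searched. None was found for Fosl1, Egr1, Egr3, Klf10, Myc, Ier2, Dusp4, Spry4 and Arc, so the motifs of these members are not known here. The CRE was in 4 of the 41 (9.76%), against 1.55% of 32851 windows of that length over all genes. Its half-site TGACG, which the full element contains, was in 51.2% of member windows and 17.8% of all windows. The EGR site GCGNGGGCG was in 24.4% against 4.70%, and the AP-1 site TGANTCA in 2.44% against 6.75%. The CArG box, the element of serum response factor, was in 14.6% against 1.47%, and these windows belonged to Dusp5, Egr2 and Zfp36. Several of them were windows of Egr2. Counted by gene, the CArG box was in 3 of 30 members against 1.62% of all genes, and the CRE in 4 of 30 against 1.77%. Windows of 1 gene can overlap, so the shares over members do not count independent promoters, and these sites are letter matches.

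Maff, a small MAF transcription factor, did not pass in the comparison of times, with a log2 difference of 0.20 (SE 0.13, limma adjusted p = 0.467), or 0.06 without control 4 h replicate 2. It read 7.43, 7.22 and 7.63 with Hmgn5 siRNA at 24 h, 7.28, 7.30 and 7.28 in control cells at 24 h, and 7.17, 6.80 and 7.28 in control cells at 4 h. Its groups overlapped.

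**Figure D2:**
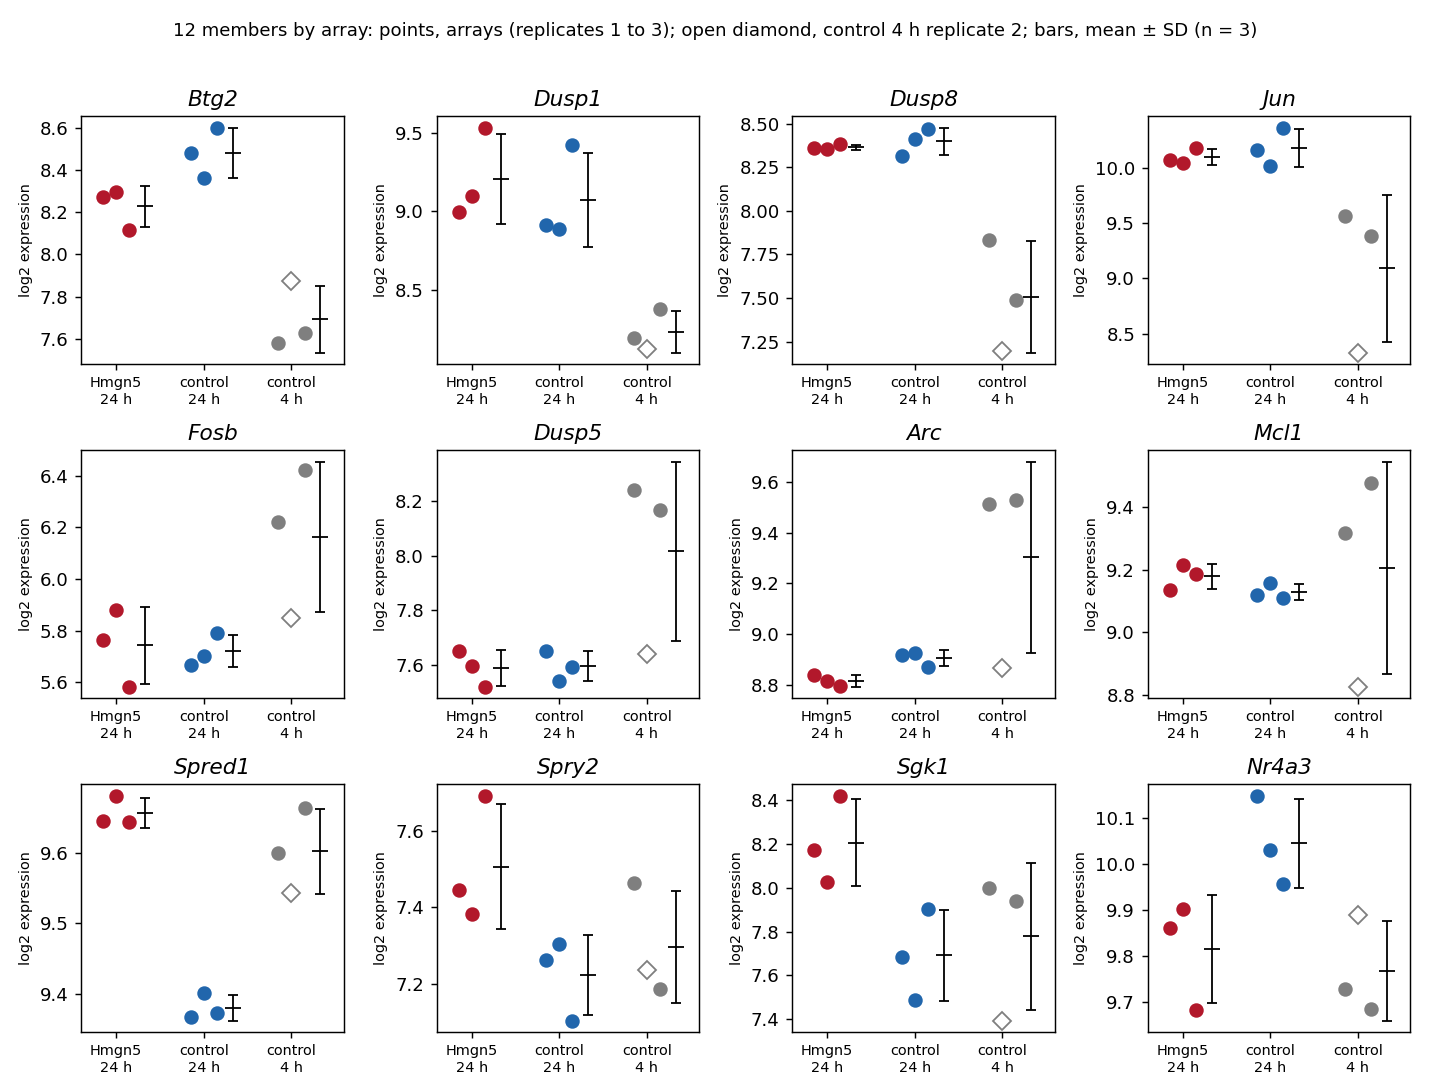
Log2 expression of 12 members in each array, with the mean and SD of each group of 3 beside its points and control 4 h replicate 2 as an open diamond. Btg2, Dusp1, Dusp8 and Jun are higher in both groups at 24 h than in any array at 4 h, and the open diamond falls to the 24 h level for Fosb, Dusp5 and Arc.

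Jun, the main activating partner of Fos in AP-1, had the widest difference of any member over time with all arrays and missed the threshold. Its readings were 10.07, 10.05 and 10.18 with Hmgn5 siRNA at 24 h, 10.16, 10.02 and 10.37 in control cells at 24 h, and 9.56, 8.33 and 9.39 in control cells at 4 h. Both groups at 24 h lay above every 4 h array. In control cells the log2 difference was 1.09 (SE 0.26, limma adjusted p = 0.0508), or 2.13-fold, and 7 of the 17 alternatives called it. Without control 4 h replicate 2 the difference was smaller, 0.71 (SE 0.10), and passed (adjusted p = 0.01), while Btg2, Dusp1 and Dusp8 then had wider differences.

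None of the other AP-1 subunits passed with all 9 arrays. Fos, the prototype immediate-early gene, differed by -0.04 over time (limma adjusted p = 0.932), or by -0.20 without control 4 h replicate 2 (adjusted p = 0.458). Its control arrays read 6.88, 6.74 and 6.89 at 24 h and 7.18, 6.54 and 6.90 at 4 h, with overlap. Jund, the subunit present in resting cells, had a difference of 0.57 (adjusted p = 0.185), which became 0.26 without control 4 h replicate 2 (adjusted p = 0.0971). A dimmer second probe set of Jund gave 0.22. Junb, a subunit with weaker activation than Jun, had -0.15 (adjusted p = 0.577), or -0.29 without that array (adjusted p = 0.133). The late-acting Fosl2 had 0.05 (adjusted p = 0.776), or 0.09.

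Fosb, a Fos relative, read 5.76, 5.88 and 5.58 with Hmgn5 siRNA at 24 h, 5.67, 5.70 and 5.79 in control cells at 24 h, and 6.22, 5.85 and 6.42 in control cells at 4 h. Control cells at 24 h lay below all control cells at 4 h, while the Hmgn5 siRNA group overlapped them through control 4 h replicate 2. The difference in control cells was -0.44 (SE 0.13, limma adjusted p = 0.108), and it was -0.60 and called without that replicate (SE 0.10, adjusted p = 0.014). All its 24 h values and control 4 h replicate 2 lay below 5.92, the highest mean among markers of other cell types. Background was not estimated, so the size of the Fosb difference is uncertain.

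Dusp5, Arc, Mcl1 and Spred1 behaved alike in that they were called lower at 24 h only without control 4 h replicate 2, among settings that leave out an array. These 4, with Fosb, are described because of those values and not by the naming rule. Dusp5 encodes a nuclear phosphatase specific for ERK. It read 7.65, 7.59 and 7.52 with Hmgn5 siRNA at 24 h, 7.65, 7.54 and 7.59 in control cells at 24 h, and 8.24, 7.64 and 8.17 in control cells at 4 h. Replicate 2 at 4 h thus sat at the 24 h level and the other 4 h arrays well above it. The difference over time was -0.42 (SE 0.14, limma adjusted p = 0.131) with all arrays and -0.61 (SE 0.06, adjusted p = 0.00294) without replicate 2.

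The window of Dusp5 is also shown, and it too was chosen after the values were seen. It holds a pair of adjoining CArG boxes, in capitals, which begin 82 and 72 bases before the start. It holds a CRE half-site at 55 and no full CRE. Egr2 and Zfp36, the other members with a CArG box in their windows, differed by -0.06 and -0.04 over time in control cells. The window of Jun held none of the motifs counted. Whether any of these sites bears on the differences was not tested.
Dusp5 (chr19:53528895-53529144, plus strand): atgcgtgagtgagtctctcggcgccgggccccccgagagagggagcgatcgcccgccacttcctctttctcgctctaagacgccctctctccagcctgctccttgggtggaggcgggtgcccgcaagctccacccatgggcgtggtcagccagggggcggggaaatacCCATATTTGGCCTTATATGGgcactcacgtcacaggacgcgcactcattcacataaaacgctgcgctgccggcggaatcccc

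Arc, a cytoskeleton-associated protein of synapses that is induced by neuronal activity, read 8.84, 8.82 and 8.79 with Hmgn5 siRNA at 24 h, 8.92, 8.93 and 8.87 in control cells at 24 h, and 9.51, 8.87 and 9.53 in control cells at 4 h. Replicates 1 and 3 at 4 h were the high arrays, and replicate 2 lay at the level of control cells at 24 h. Its difference over time was -0.40 (SE 0.15, limma adjusted p = 0.195) and -0.61 (SE 0.05, adjusted p = 0.00139) without replicate 2. Mcl1, an antiapoptotic BCL2 relative, differed by -0.08 (adjusted p = 0.825) with all arrays and by -0.27 (adjusted p = 0.0478) without it. Spred1, a membrane protein that blocks RAF activation by RAS, differed by -0.22 (SE 0.06, adjusted p = 0.0605) and by -0.25 (adjusted p = 0.0284).

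**Figure D3:**
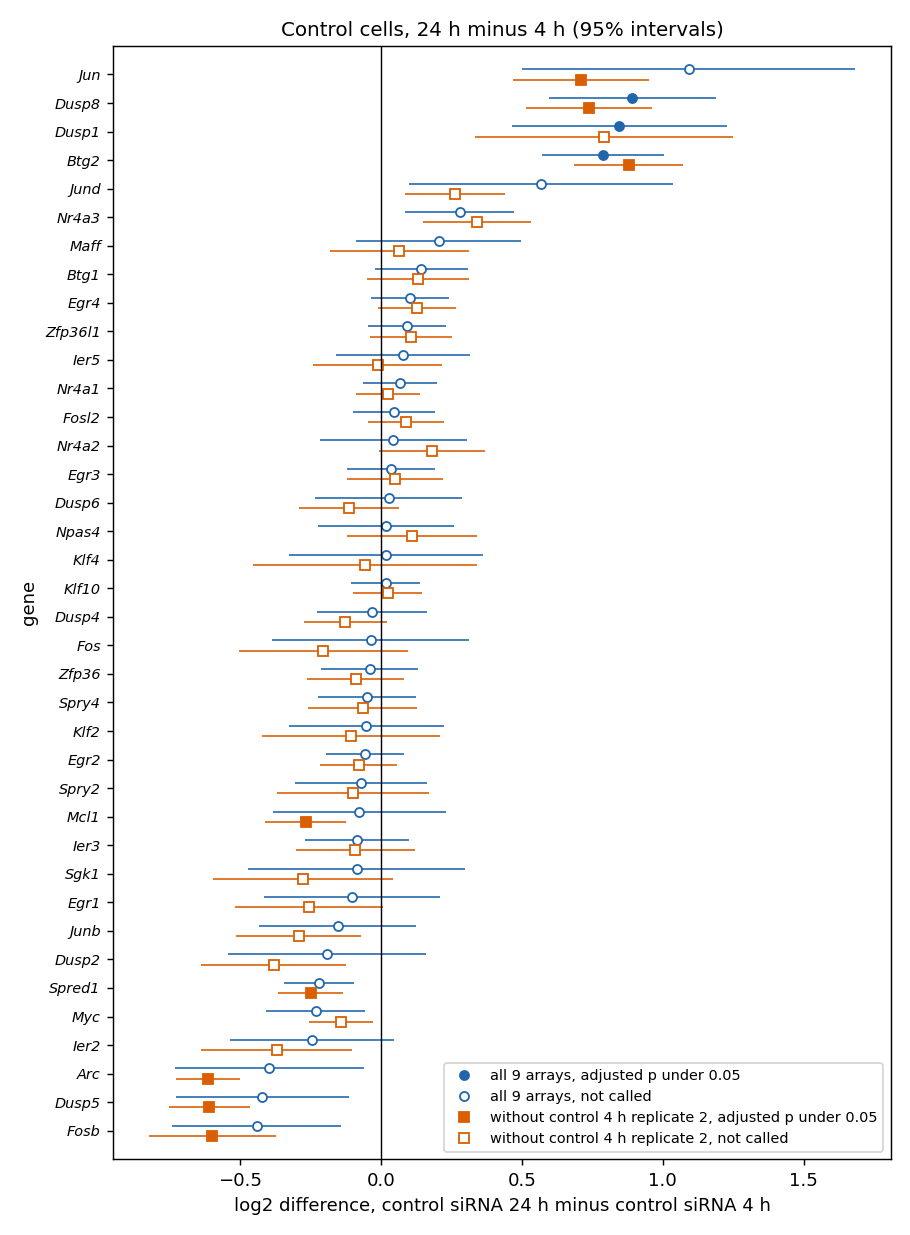
Log2 difference of each member between control siRNA at 24 h and at 4 h with its 95% interval, with all 9 arrays (circles) and without control 4 h replicate 2 (squares), filled where the limma adjusted p was under 0.05. Btg2 and Dusp8 are called in both, Dusp1 with all arrays, and Jun, Fosb, Dusp5, Arc, Mcl1 and Spred1 without that array.

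The remaining transcription factors showed no call over time, either with all arrays or without control 4 h replicate 2. The 4 EGR zinc finger genes, which include the rapid response gene Egr1, had log2 differences between -0.10 and 0.10, or between -0.26 (Egr1) and 0.13 without that replicate. Egr2, Egr3 and Egr4 had group means between 5.28 and 5.79, no higher than the markers of other cell types, at most 5.92. Background was not estimated, so their small differences do not show expressed genes that held steady. Of the NR4A orphan nuclear receptors, Nr4a1 and Nr4a2 had 0.07 and 0.04, or 0.02 and 0.18 without replicate 2. Nr4a3 read 9.86, 9.90 and 9.68 with Hmgn5 siRNA at 24 h, 10.15, 10.03 and 9.96 in control cells at 24 h, and 9.73, 9.89 and 9.69 in control cells at 4 h. Control cells at 24 h were above the other groups, with a difference over time of 0.28 (SE 0.09, limma adjusted p = 0.114) that passed only under array weights (adjusted p = 0.0229) and was 0.34 without replicate 2 (adjusted p = 0.0568). Myc, which drives growth and ribosome production, was lower at 24 h by a difference of -0.23 that did not pass (adjusted p = 0.146; -0.14 without replicate 2), and its 2 groups did not overlap. Klf2, Klf4, Klf10 and the activity-dependent factor Npas4 lay between -0.05 and 0.02, or between -0.11 and 0.11 without replicate 2, where Klf4 changed sign. Group means were 4.74 to 4.88 for Npas4 and 5.71 to 5.89 for Klf2, also no higher than the markers of other cell types.

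Among the other feedback and effector genes no difference over time passed, either with all arrays or without control 4 h replicate 2. Dusp6, the cytoplasmic phosphatase of ERK, had 0.03, its relative Dusp4 -0.03 and Dusp2 -0.19. Without replicate 2 these 3 phosphatase genes were all lower at 24 h, Dusp6 by a difference of -0.11, Dusp4 by -0.13 and Dusp2 by -0.38 (limma adjusted p = 0.0958 for Dusp2). Spry2 and Spry4, which inhibit receptor tyrosine kinase signalling, had -0.07 and -0.05, or -0.10 and -0.07 without it. The mRNA decay factor Zfp36 had -0.04, and Zfp36l1, the 1 member among the 33.3% of genes with the lowest signal, had 0.09, and without replicate 2 they had -0.09 and 0.11. Ier2, Ier3 and Ier5 had -0.25, -0.09 and 0.08, Btg1 had 0.14, and the kinase gene Sgk1 had -0.09. Without replicate 2 the values were -0.37, -0.09 and -0.01 for the IER genes, 0.13 for Btg1 and -0.28 for Sgk1. Over all 38 members 19 differences were above 0 and 19 below, with a median of -0.01, where all genes had a median of 0.02. With control 4 h replicate 2 left out, 16 were above 0 and the median was -0.07, where all genes again had 0.02. That array lay below the mean of the other 4 h arrays for 28 members (73.7%), against 46.5% of all genes. Leaving it out therefore lowers most of the members' differences by itself, and only replicates 1 and 3 remain at 4 h. The groups at 24 h and 4 h did not overlap for 10 members (26.3%), against 21.3% of all genes. Of these, 7 were higher at 24 h (11.3% of all genes) and 3 were lower (9.98%).

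With Hmgn5 siRNA at 24 h no member was called against control siRNA, where 0.0135% of all genes were called, 0.00902% higher and 0.00451% lower. At an unadjusted p under 0.05 there were 5 of the 38 members, against 1164 of the 22180 genes tested. The smallest limma adjusted p among members was 0.365. Differences ran from -0.25 for Btg2 to 0.51 for Sgk1, with a median of 0.00, as for all genes, and 19 members were above 0 and 19 below. For 35 of the 38 members the 95% interval of the difference stayed within 1.5-fold in both directions. They include Zfp36l1, Npas4, Egr2, Egr3, Egr4, Klf2, Fosb and Ier2, whose means at 24 h lay below 5.92, the highest mean among markers of other cell types. Background was not estimated, so the intervals of these dim genes do not show expressed genes that held steady. The exceptions were Jun (-0.68 to 0.51), Jund (-0.60 to 0.34) and Sgk1 (0.13 to 0.90), so a change beyond 1.5-fold is not excluded by the intervals of these 3 genes. The fit pools the spread of all 3 groups. The SD of Jun was 0.07 with Hmgn5 siRNA and 0.17 with control siRNA at 24 h, against 0.67 in control cells at 4 h. For Jund it was 0.003, 0.035 and 0.54. The widths for Jun and Jund thus rest largely on the 4 h arrays, which are in neither group compared. None of the 17 alternatives called any member.

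The 5 members with unadjusted p under 0.05 were Spred1, Sgk1, Spry2, Nr4a3 and Btg2, and they are described because of those values. The groups did not overlap for 8 members (21.1%), against 12.3% of all genes. Of these Spred1, Spry2, Sgk1 and Myc were higher with Hmgn5 siRNA (6.65% of all genes), and Btg2, Nr4a3, Jund and Arc were lower (5.62%). By role, the 3 Sprouty and Spred genes all had differences above 0, from 0.10 to 0.28, and the 3 NR4A genes all had differences below 0, from -0.23 to -0.03. AP-1 subunits lay between -0.13 and 0.12, EGR genes between -0.05 and 0.06, and the MAP kinase phosphatases between -0.13 and 0.13. None of these values passed.

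Spred1 read 9.64, 9.68 and 9.64 with Hmgn5 siRNA, against 9.37, 9.40 and 9.37 with control siRNA at 24 h and 9.60, 9.54 and 9.66 with control siRNA at 4 h. The Hmgn5 siRNA arrays thus overlapped the 4 h arrays and not the 24 h controls. The difference at 24 h was 0.27 (SE 0.06, limma adjusted p = 0.365), with adjusted p from 0.0945 to 0.831 over the alternatives. Spry2 read 7.44, 7.38 and 7.69 with Hmgn5 siRNA, against 7.26, 7.30 and 7.10 with control siRNA at 24 h, a difference of 0.28 (SE 0.10, adjusted p = 0.926). Spry4, of the same family, had 0.10 (adjusted p = 0.99).

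Sgk1, a kinase induced by serum, glucocorticoids and osmotic stress, read 8.17, 8.03 and 8.42 with Hmgn5 siRNA, against 7.69, 7.49 and 7.90 with control siRNA at 24 h and 8.0, 7.39 and 7.94 with control siRNA at 4 h. The groups at 24 h did not overlap, and the arrays numbered 3 were the highest in both. The difference of 0.51 (SE 0.17, 1.43-fold) did not pass (limma adjusted p = 0.846). Btg2 was lower with Hmgn5 siRNA by a difference of -0.25 (SE 0.10, adjusted p = 0.926), and Nr4a3 by one of -0.23 (SE 0.09, adjusted p = 0.926).

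**Figure D4:**
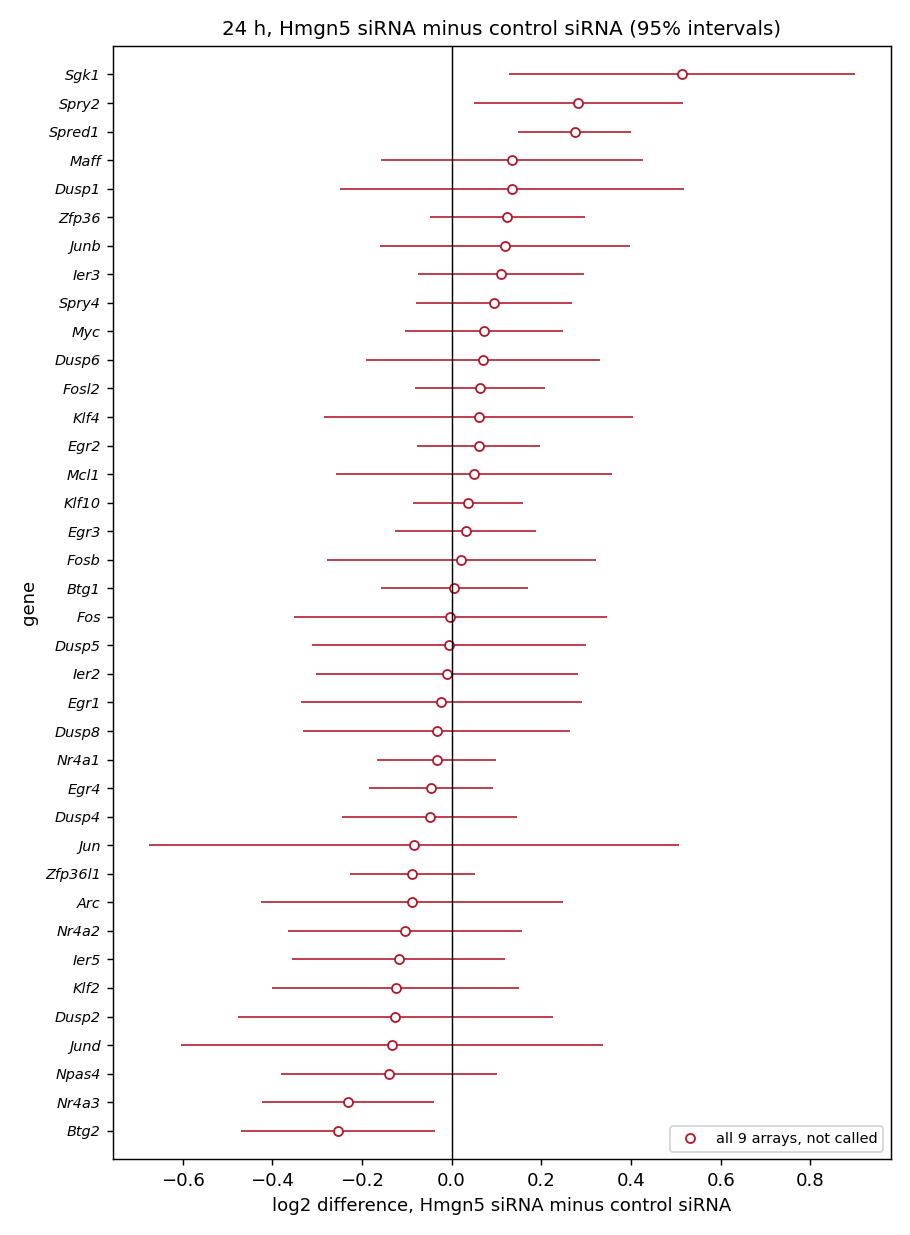
Log2 difference of each member between Hmgn5 siRNA and control siRNA at 24 h, with its 95% interval; open circles mark genes that did not pass. All 38 are open, and Sgk1, Spry2 and Spred1 lie highest while Btg2 and Nr4a3 lie lowest.

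The genes that rose over time in control cells were not called between the siRNAs at 24 h. Dusp8 had a difference of -0.03 (95% interval -0.33 to 0.26) and Dusp1 one of 0.13 (-0.25 to 0.52). These intervals too pool the spread of the 4 h arrays. Jun had -0.08, Fosb 0.02, Dusp5 -0.01 and Arc -0.09, with limma adjusted p of 0.999 for each.

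Set against control siRNA at 4 h, the Hmgn5 siRNA group had the same calls, Btg2, Dusp1 and Dusp8, with siRNA and time differing together. The comparison shares the 4 h arrays with the one over time, so its values are given only beside those of the first. Btg2 differed by 0.54 (limma adjusted p = 0.0226), against 0.79 in control cells. For Dusp1 the values were 0.98 (adjusted p = 0.0195) against 0.85, and for Dusp8 0.86 (adjusted p = 0.0128) against 0.89. These 3 calls stand beside 2.57% of all genes called, 1.52% higher and 1.04% lower, and 8 members (21.1%) did not overlap where 18.9% of all genes did not. Leaving out 1 array ended the Btg2 call in 4 cases, replicates 1 and 3 of the control arrays at 4 h and replicates 1 and 2 of the Hmgn5 siRNA arrays, with adjusted p up to 0.1. The Dusp1 call ended in 3 cases (up to 0.0642), with replicate 1 of the early control arrays and with replicates 2 and 3 of the knockdown arrays. For Dusp8 each of the 3 Hmgn5 siRNA arrays ended it (up to 0.0581), and with only these 6 arrays in the fit none of the 3 genes passed. Without control 4 h replicate 2, 4 members were higher and 3 lower, where 3.53% of all genes were called, 2.01% higher and 1.53% lower. They were Btg2 (0.63), Dusp1 (0.93), Dusp8 (0.70) and Jun (0.63), and Fosb (-0.58), Dusp5 (-0.62) and Arc (-0.70).

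The wider pathway was followed in 6 lists, of which 100 of 112 genes were measured. The lists were chosen with earlier results of these data known, so their counts of calls are not a test of the pathway. Over time in control cells 4.34% of all genes were called, or 5.58% without control 4 h replicate 2. Other feedback inhibitors held the most calls over time in control cells, with 3 of 17 higher and 1 lower, or 3 and 3 without control 4 h replicate 2, where Dusp7 (-0.29) and Errfi1 (-0.27) joined. Dusp16 (0.73, limma adjusted p = 0.000436) and Dusp10 (0.53, adjusted p = 0.0132), phosphatases of JNK and p38 like Dusp8, rose. Dusp16 read 9.07, 9.08 and 9.07 with Hmgn5 siRNA at 24 h, 9.01, 9.04 and 8.99 in control cells at 24 h, and 8.28, 8.30 and 8.25 in control cells at 4 h, so that each group was tight and the times stood apart. Lrig1, which promotes degradation of receptor tyrosine kinases, rose by 0.46 (adjusted p = 0.0115), and the ERK phosphatase gene Dusp9 fell by 0.53 (adjusted p = 0.0211). Dusp3, an ERK and JNK phosphatase, had 0.14 and did not pass. The median of the list was -0.03.

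Of 13 genes for the transcription factors SRF and CREB, their relatives and partners, and their coactivators, Srf fell by 0.77 log2 units (limma adjusted p = 0.000547). None rose, and the list median was -0.13. Srf read 9.06, 9.04 and 8.88 with Hmgn5 siRNA at 24 h, 8.82, 8.88 and 8.77 in control cells at 24 h, and 9.60, 9.60 and 9.59 in control cells at 4 h. Both groups at 24 h lay below every array at 4 h, replicate 2 included. The CREB coactivators Crtc2 (-0.19) and Crtc1 (-0.20), the acetyltransferase gene Ep300 (-0.34) and Creb1 (-0.15) did not pass. With control 4 h replicate 2 left out they stood at -0.15, -0.10, -0.18 and -0.09. In the cascade from RAS to ERK 2 of 13 genes fell, the exchange factor gene Sos2 (-0.30, adjusted p = 0.0196) and the GTPase-activating gene Rasa1 (-0.33, adjusted p = 0.0377). The adaptors Grb2 (0.21) and Shc1 (0.37) and the exchange factor Sos1 (-0.22) did not pass, and the median was -0.06. Without replicate 2 at 4 h Grb2 had 0.13, Shc1 0.15 and Sos1 -0.14.

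Growth factor receptors had 3 of 17 higher and none lower, with a median of 0.07. Ngfr, the p75 neurotrophin receptor, rose by 0.65 (limma adjusted p = 0.0182), the insulin receptor gene Insr by 0.34 (adjusted p = 0.0132) and the insulin-like growth factor receptor gene Igf1r by 0.33 (adjusted p = 0.0278). The neurotrophin receptor gene Ntrk3 (-0.40) and the neuregulin receptor gene Erbb3 (0.59) did not pass. Without control 4 h replicate 2, Erbb3 was the fourth receptor gene to pass, at a smaller difference of 0.32 (adjusted p = 0.0467), and Ntrk3 passed in 4 of the 17 alternatives. Of 16 delayed activity genes, Nptx1, a neuronal pentraxin (0.73, adjusted p = 0.0124), and the granin gene Scg2 (0.34, adjusted p = 0.0135) rose, and the synaptotagmin gene Syt4 fell by 0.50 (adjusted p = 0.0165). Plaur (-0.59, and -0.72 without control 4 h replicate 2, where it passed with adjusted p = 0.0349) and Rgs4 (0.16) did not pass, and the median was 0.06. Among 24 other immediate-early genes Klf6 alone rose, by 0.42 (adjusted p = 0.0159), none fell, and the median was 0.04. Gadd45g (-0.42) and Ppp1r15a (-0.60) fell without control 4 h replicate 2. Dusp7, Errfi1, Gadd45g and Ppp1r15a are named because of those values. Homer1 (-0.32), Bhlhe40 (0.25), Tob1 (0.44) and Id1 (-0.17) did not pass, and without that array they had -0.24, 0.18, 0.20 and -0.23.

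Only Dusp16 and Srf of these 14 list genes kept their call with any 1 of the 9 arrays left out. Dusp10, Insr and Nptx1 lost it without control 24 h replicate 1 (adjusted p up to 0.0595), Lrig1 without control 24 h replicate 1 or 2, Scg2 without control 24 h replicate 2 or 3, and Klf6 and Ngfr without any 1 control array at 24 h (up to 0.0712). Syt4, Sos2 and Dusp9 lost it in 3, 4 and 4 such settings, Igf1r in 6, and Rasa1 in every one except that without control 4 h replicate 2 (up to 0.131). With Hmgn5 siRNA at 24 h none of the 100 genes was called. The values with the smallest p were Klf6 (0.34, limma adjusted p = 0.458), Spry3 (0.33, adjusted p = 0.765) and Nptx1 (-0.38, adjusted p = 0.83).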

How the data were processed

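RNA of N1E-115 cells was measured on 9 Affymetrix arrays, 3 per group, grouped by the sample titles. Values as deposited are log2 expression for each probe set, made by the authors with oligo and RMA per the submitters' processing notes (no version given in the sources used here). RMA corrects background, quantile-normalizes the arrays and summarises probes, so only changes relative to the other genes remain. Of 41345 probe sets, 23521 had 1 gene symbol, 1814 several and 16010 none in the platform annotation, and those of 1 gene gave 22180 genes. limma 3.58.1 in R 4.3.3 (lmFit, eBayes, group means, all 9 arrays; 6 residual and 3.55 prior degrees of freedom) was used, with Benjamini-Hochberg adjustment over all genes and a threshold of 0.05. No 2 arrays held identical values. Nothing in the labels states that replicates are separate cultures. The p-values here then describe only the spread among these samples, possibly technical, and the number of arrays limits precision. The fit was also run on simulated data with normal noise. No array there stood apart as control 4 h replicate 2 does, so that run says nothing about the effect of this array. Motifs were counted in RefSeq promoter windows (GRCm38.p6). Members and lists were chosen with earlier results of these data known. The naming rule took members called in any comparison, members with groups apart by at least 1.5-fold, and the list genes with the smallest p. Alternatives varied the replicate block, prior, array weights, filter, scaling, probe set choice, groups fitted and single arrays.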

Additional observations from a re-analysis of the deposited data

How the results depend on the processing

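Of the members, Btg2 alone was called over time under all 17 alternatives. The number of genes called over time was 963, with 1685 under array weights, 280 with only the 2 groups compared and 310 to 1238 with an array left out. It was 355, 310 and 407 without control 24 h replicate 1, 2 and 3, 588 without control 4 h replicate 3 and 624 without Hmgn5 siRNA replicate 1. For Hmgn5 siRNA against control siRNA at 24 h it was 3, with 7 under array weights, 5 with a trend and robust prior, 2 after the filter or with only the 2 groups, 1 with the replicate block and 0 to 2 with an array left out. For Hmgn5 siRNA at 24 h against control 4 h it was 569, with 1226 under array weights, 113 with only the 2 groups and 165 to 784 with an array left out. It was 175, 165 and 221 without Hmgn5 siRNA replicate 1, 2 and 3, 338 and 349 without control 24 h replicate 1 and 2, and 323 without control 4 h replicate 3. Members higher over time numbered 3, with 5 under array weights, 1 with only the 2 groups and 2 to 3 with an array left out. Members lower numbered 0, with 4 under array weights, 1 each under the trend and robust prior, the filter and median centring (Spred1), and 0 to 5 with an array left out. Against control 4 h, members higher with Hmgn5 siRNA numbered 3, with 0 for only the 2 groups and 0 to 4 with an array left out, and members lower 0, with 3 under array weights and 0 to 3 with an array left out. No member was called between the siRNAs under any alternative. Centring each array on its median gave 389 higher and 625 lower over time, where the deposited scaling gave 481 and 482. The numbers in the titles were not taken to pair the samples, since deviations of same-numbered arrays correlated at 0.01 to 0.29 and not every pair exceeded 0.1. As a hint from the data, not the design, 7 of 9 arrays correlated best with their own number in both other groups. With that number as a block 893 genes were called over time, 505 for Hmgn5 siRNA against control 4 h, and Jun passed over time (adjusted p = 0.0336). Of 645 member values per comparison, 32 over time, 28 between the siRNAs and 28 against control 4 h changed sign, all uncalled on both sides, and no called value reversed. Except where an array was left out or only 2 groups were fitted, the cause of these shifts was not tested. Background signal was not estimated, which limits what the dim Zfp36l1 and Hmgn5 probe sets can show. The same holds for Npas4, Egr2, Egr3, Egr4 and Klf2, whose group means lay below the 5.92 of the brightest marker of other cell types. It holds too for Fosb and Ier2 at 24 h.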

Other observations

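Values that repeat exactly between arrays occur in the deposited table. To 6 decimals, 11 of 38 members (28.9%) had the same value in at least 2 arrays, against 53.3% of all genes. Klf10 read 9.33 in all 3 control arrays at 24 h.

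A second probe set was present for 4 members. For Jund it pointed the same way over time, with 0.22 beside 0.57. For Dusp6 it gave -0.09 beside 0.03, for Mcl1 0.15 beside -0.08, and for Zfp36l1 -0.02 beside 0.09, and none of these passed.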
